A study of Homo sapiens with 24 samples.

Results

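The genes described here are the protein-coding genes of human chromosome 19 whose symbol is ZNF followed by a digit. They number 250 of the 61541 genes listed for the SK-N-SH CRISPRi experiment, and all 250 were matched by Ensembl ID to the other experiments. RNA sequencing measured their transcripts with and without knockdown of FAM167A (DIORA1) in SK-N-SH and in SK-N-AS, both lines of human neuroblastoma cells. SK-N-SH cells were knocked down by CRISPR interference in 3 libraries, against 3 libraries with the non-targeting control (NTC) guide sgGal4. They were also knocked down by a pool of siRNAs in 5 libraries, against 5 libraries with a non-targeting siRNA. SK-N-AS cells were knocked down by CRISPR interference in 4 libraries, against 4 libraries with the sgGal4 guide. In CRISPR interference a guide RNA brings a repressor to a promoter. Here the repressor was SpCas9-KRAB, which the knockdown and the control cells of both CRISPRi experiments carry alike. The siRNA experiment has no such protein per the labels. Nothing in the labels says that the libraries of a group came from separate cultures, so p-values measure only the spread between these libraries, which may be technical.

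Most ZNF genes of chromosome 19 encode KRAB zinc finger proteins. An array of zinc fingers reads a DNA sequence, and a KRAB box binds the corepressor TRIM28, which brings the histone methyltransferase SETDB1, HP1 proteins and histone deacetylases to the bound site. The genes multiplied by tandem duplication and lie in blocks of close relatives, and many of their proteins bind transposable elements. ZNF274 is known to bind at the ends of other zinc finger genes in human cells and to bring SETDB1 there.

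In the longest coding transcript of each gene (GENCODE 29), a sequence pattern of the KRAB A box was found in 211 of 249 members. The other 38 lacked it. A match needed at least 9 of the pattern's 14 letters. A box that differs more, or that only another transcript encodes, would be missed. The median member had 12 zinc fingers, with a range of 0 to 36, in a protein of 590 residues at the median. Because the genes are relatives, 27 members shared over 20% of their 50-base stretches with another gene's transcripts, while 156 shared under 5%. Reads of the 27 could have been split or lost in counting, so their values are uncertain. A gene on the opposite strand overlapped 140 members. No source used here gives the strand setting of the counting, so reads from such partners cannot be told apart from the member's own.

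Where a new block began at a gap of over 1000000 bases between gene starts, the members fell into 16 blocks. The 9 blocks with at least 5 members held 239 of the 250. The largest were a block of 59 members at the end of the long arm (chr19:55476617-58481230, ZNF628 to ZNF446, GRCh38), called telomeric here, and a block of 40 members before it (chr19:51571283-53580269, ZNF175 to ZNF331), called the distal long-arm block. A block of 37 members next to the centromere on the short arm (chr19:19668796-24129968, ZNF101 to ZNF254) is called pericentromeric. The pericentromeric and distal long-arm blocks were singled out after their values were seen.

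FAM167A was lower in every knockdown. It averaged 3.22 CPM (read counts scaled to library size by edgeR's TMM method) in SK-N-SH CRISPRi knockdown and 242 CPM in its controls, which is 1.33% of control. It averaged 10.2 CPM in SK-N-AS CRISPRi knockdown and 95.1 CPM in controls (10.7%), and 65.2 CPM in siRNA knockdown and 188 CPM in controls (34.7%). Total counts per library ran from 11690515 to 21628076 in SK-N-SH CRISPRi, from 29985858 to 104455853 in SK-N-AS CRISPRi and from 71464698 to 90255175 in siRNA. In the siRNA experiment, the libraries stood apart from each other in ribosomal protein genes. The median deviation from the group's other libraries was -0.23 on the log2 scale in knockdown libraries 3 and 4 and in control library 5, and 0.20 and 0.23 in knockdown libraries 1 and 5. Of 8 mesenchymal neuroblastoma markers (VIM, CD44 and others), 6 rose and 1 fell in SK-N-SH CRISPRi knockdown, and 6 rose and 2 fell in SK-N-AS CRISPRi knockdown. With siRNA none rose and 5 fell, CD44 to 71.03 CPM in knockdown, against 231 CPM in controls (log2 fold change -1.70, SE 0.05, adjusted p = 1.04e-15), and the marker sum was 2048 to 2307 CPM in knockdown against 2561 to 2749 CPM in controls. Endothelial and glial markers summed to under 5 CPM in every library.

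In SK-N-SH CRISPRi knockdown of FAM167A, the zinc finger genes of chromosome 19 were called higher less often than all genes. They were called lower in a share near that of all genes. Members and all genes were not matched for expression level, which affects how often a gene is called, and the differences in share were not tested. Of 226 members tested, 56 fell and 30 rose. A change was called at an edgeR adjusted p under 0.05 over all genes tested. Falls made up 24.8% of the members, against 28.0% of all genes, and rises 13.3%, against 27.7% of all genes. ZNF genes of other chromosomes were similar, with 27.8% falling and 14.3% rising of 237. At least 2-fold, 9 members fell and 1 rose, which is 3.98% and 0.442% of the members, against 7.86% and 2.92% of all genes. The median log2 fold change was -0.02 for members and -0.01 for all genes. Knockdown and control libraries did not overlap for all 30 members that rose, against 95.7% of all genes that rose, and for 54 of the 56 that fell, against 94.9% of all genes that fell.

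The falls were unevenly placed along the chromosome. In the pericentromeric block 20 of 30 tested members fell and 1 rose, with a median log2 fold change of -0.45 and an interquartile range of -0.63 to -0.22. The 20 falls ran from -1.42 to -0.25. The telomeric block had 8 falls and 7 rises among 55 tested members, and the distal long-arm block 4 falls and 7 rises among 38. With DESeq2 the falls numbered 5 in the telomeric block and 2 in the distal long-arm block. In the distal long-arm block 1 fall was left without knockdown library 1 and 2 without control library 3. A block of 24 members on the long arm (chr19:43525497-45076478, ZNF575 to ZNF296) had 7 rises, among them ZNF155, ZNF222, ZNF223, ZNF224 and ZNF226, and 5 falls among 23. Other genes within the pericentromeric span fell as well, 8 of the 13 tested, with a median of -0.85. In the same libraries the mesenchymal marker sum was 10810 to 11410 CPM in knockdown against 5758 to 6597 CPM in controls. Most of this sum was FN1, averaging 5609 CPM in knockdown and 2467 CPM in controls, and VIM, averaging 3969 and 2768 CPM. Of the 8 markers, 6 rose, TWIST1 fell (157.2 CPM in knockdown, 238.6 CPM in controls) and SNAI2 was not called. DBH, the enzyme that makes noradrenaline, averaged 202.0 CPM in knockdown and 620.8 CPM in controls (log2 fold change -1.62, SE 0.04, adjusted p = 4.97e-29). The sum of 5 epithelial markers was 158 to 166 CPM in knockdown against 78.9 to 86.4 CPM in controls, with KRT18 and KRT8 up of 3 tested. The part of these markers in the fall of the block was not tested. In bulk RNA, fewer cells of a kind and less RNA per cell cannot be told apart.

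**Figure D1:**
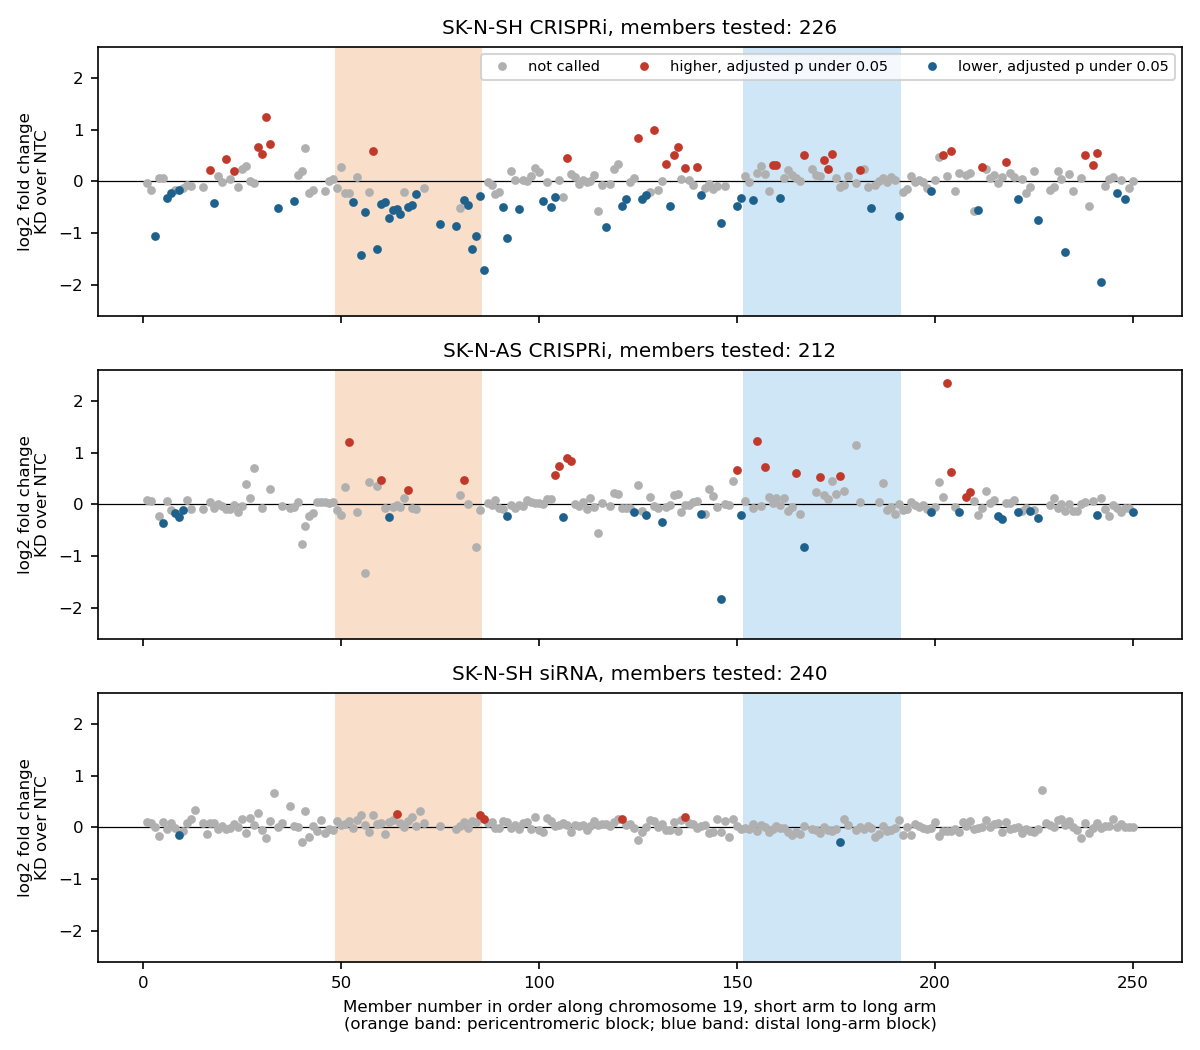
Log2 fold change of knockdown over control (vertical axis) for the members tested, in their order along chromosome 19 (horizontal axis, 1 to 250), in SK-N-SH CRISPRi, SK-N-AS CRISPRi and SK-N-SH siRNA; red points rose, blue points fell and grey points were not called. The orange band marks the pericentromeric block, where 20 of 30 points are blue in SK-N-SH CRISPRi, and the blue band the distal long-arm block.

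Summed over its 37 members, the pericentromeric block had 201 to 212 CPM in the 3 SK-N-SH CRISPRi knockdown libraries against 270 to 285 CPM in the 3 controls, with no overlap. In SK-N-AS the sum was 95.03 to 102 CPM in CRISPRi knockdown and 95.5 to 106 CPM in controls, which overlapped. In the siRNA experiment it was 403 to 473 CPM in knockdown and 383 to 420 CPM in controls, which also overlapped. The 7 members of the block not tested in SK-N-SH CRISPRi, for low counts, were ZNF208, ZNF676, ZNF729, ZNF98, ZNF99, ZNF723 and ZNF728.

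**Figure D2:**
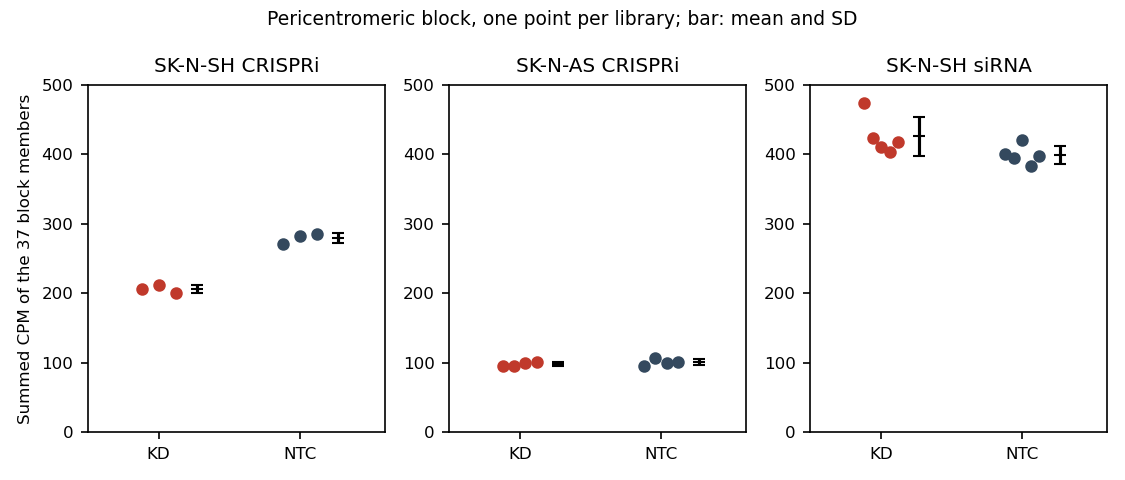
Summed CPM of the 37 pericentromeric members (vertical axis) in each library (points), knockdown left of control in each experiment, with the mean as a line and the SD as a bar. The SK-N-SH CRISPRi knockdown libraries sit between 201 and 212 CPM, all below their controls, while the groups of the other experiments overlap.

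The promoters of this block share short stretches of sequence. Of its members, 29 had a promoter in the RefSeq table (GRCh38.p14, 250 bases before to 50 after the start). The stretch CCTGATTGGA, read on either strand (reverse complement TCCAATCAGG), was the 10-letter stretch held by most of them, 26 of 29 or 89.7%. It holds a CCAAT box on its reverse strand. It occurred in 18 of 189 promoters of other members (9.52%) and in 0.347% of 35116 RefSeq promoters. Its median place was 58 bases before the start. A further stretch that does not overlap it, CTGTCACTCA (reverse complement TGAGTGACAG), occurred in 22 of the 29 (75.9%), in 6.35% of other members' promoters and in 0.327% of all. Both stretches were picked from these promoters by their number, so the counts describe them and are no test.

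To show how alike these promoters are, the 150 bases before the start are printed for the 4 members of the block with the largest falls and for ZNF626, the 1 member that rose. They run 5′ to 3′ on the gene's strand, and capitals mark both shared stretches. The coordinates are chr19:23758892-23759041 on the minus strand for ZNF681, chr19:20077850-20077999 on the plus strand for ZNF90, chr19:23914736-23914885 on the plus strand for ZNF726, chr19:20776154-20776303 on the plus strand for ZNF66 and chr19:20661572-20661721 on the minus strand for ZNF626.
ZNF90: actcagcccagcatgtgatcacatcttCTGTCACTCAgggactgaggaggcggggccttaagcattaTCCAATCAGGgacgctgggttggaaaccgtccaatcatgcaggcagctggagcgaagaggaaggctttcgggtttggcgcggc
ZNF66: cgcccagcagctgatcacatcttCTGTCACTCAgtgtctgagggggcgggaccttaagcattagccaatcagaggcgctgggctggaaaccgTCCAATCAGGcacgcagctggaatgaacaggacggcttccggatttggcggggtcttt
ZNF681: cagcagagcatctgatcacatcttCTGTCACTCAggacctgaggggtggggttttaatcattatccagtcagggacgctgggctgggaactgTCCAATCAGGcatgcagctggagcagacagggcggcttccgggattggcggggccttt
ZNF726: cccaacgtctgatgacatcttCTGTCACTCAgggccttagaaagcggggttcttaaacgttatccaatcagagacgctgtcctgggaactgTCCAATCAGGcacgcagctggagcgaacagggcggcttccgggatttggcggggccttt
ZNF626: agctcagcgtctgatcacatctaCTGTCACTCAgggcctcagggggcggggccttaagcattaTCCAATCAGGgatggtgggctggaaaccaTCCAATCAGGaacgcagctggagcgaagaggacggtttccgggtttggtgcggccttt

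ZNF626, which rose, holds both stretches as the 4 that fell do. Of the block members tested in SK-N-SH CRISPRi that had a promoter in the table, 25 held the first stretch and 19 of these fell, with a median log2 fold change of -0.46. The 2 without it did not pass the test and had a median of -0.16. Promoters of the block were poorer in CpG than those of other members, with a median of 10 CpG in 300 bases. The median was 25 in the distal long-arm block, 23 in the telomeric block and 20 over all 218 members with a promoter. It was 19 in the block from ZNF575 to ZNF296, 16 in that from ZNF653 to ZNF791, and 14 over all 35116 RefSeq promoters.

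Among single members of the block, ZNF90 had 2.29, 2.497 and 1.98 CPM in the SK-N-SH CRISPRi knockdown libraries against 5.79, 6.86 and 5.56 CPM in controls. Every knockdown library was below every control, and the log2 fold change was -1.42 (SE 0.17, edgeR adjusted p = 7.04e-09). ZNF681 (chr19:23739195-23758891, minus strand) had 4.19, 5.26 and 4.09 CPM in knockdown against 11.8, 11.6 and 10.3 CPM in controls. Here too the groups stood clear of each other (log2 fold change -1.30, SE 0.13, adjusted p = 5.27e-11). ZNF66 had 1.24, 1.28 and 1.09 CPM in knockdown against 2.65, 3.04 and 3.22 CPM in controls, a log2 fold change of -1.32 (SE 0.23, adjusted p = 8.89e-06). ZNF726 had 2.94, 3.31 and 3.38 CPM in knockdown against 6.70, 6.40 and 6.97 CPM in controls, a log2 fold change of -1.06 (SE 0.15, adjusted p = 1.74e-07). Both genes lay lower in all 3 knockdown libraries. ZNF714, a more abundant member, had 16.7, 18.4 and 16.7 CPM in knockdown against 26.9, 27.4 and 29.4 CPM in controls (log2 fold change -0.70, SE 0.08, adjusted p = 7.72e-10).

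ZNF91 and ZNF93 are block members whose proteins bind SVA and LINE-1 retroelements in primates. ZNF91 had 19.9, 17.5 and 18.7 CPM in knockdown against 21.8, 26.7 and 23.9 CPM in controls, and fell (log2 fold change -0.37, SE 0.08, adjusted p = 0.00027). ZNF93 had 5.43, 6.21 and 7.09 CPM in knockdown against 8.19, 7.46 and 8.86 CPM in controls, and fell (log2 fold change -0.40, SE 0.13, adjusted p = 0.00902). The margin for ZNF93 was narrow, and its call was lost without knockdown library 1 or control library 3. ZNF626, in contrast, had 3.79, 5.06 and 3.58 CPM in knockdown against 2.73, 3.23 and 2.42 CPM in controls (log2 fold change 0.58, SE 0.19, adjusted p = 0.00861). That call was lost without knockdown library 2 or control library 3. The count of falls in the block was 15 without control library 3 and 17 to 21 without each other library.

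**Figure D3:**
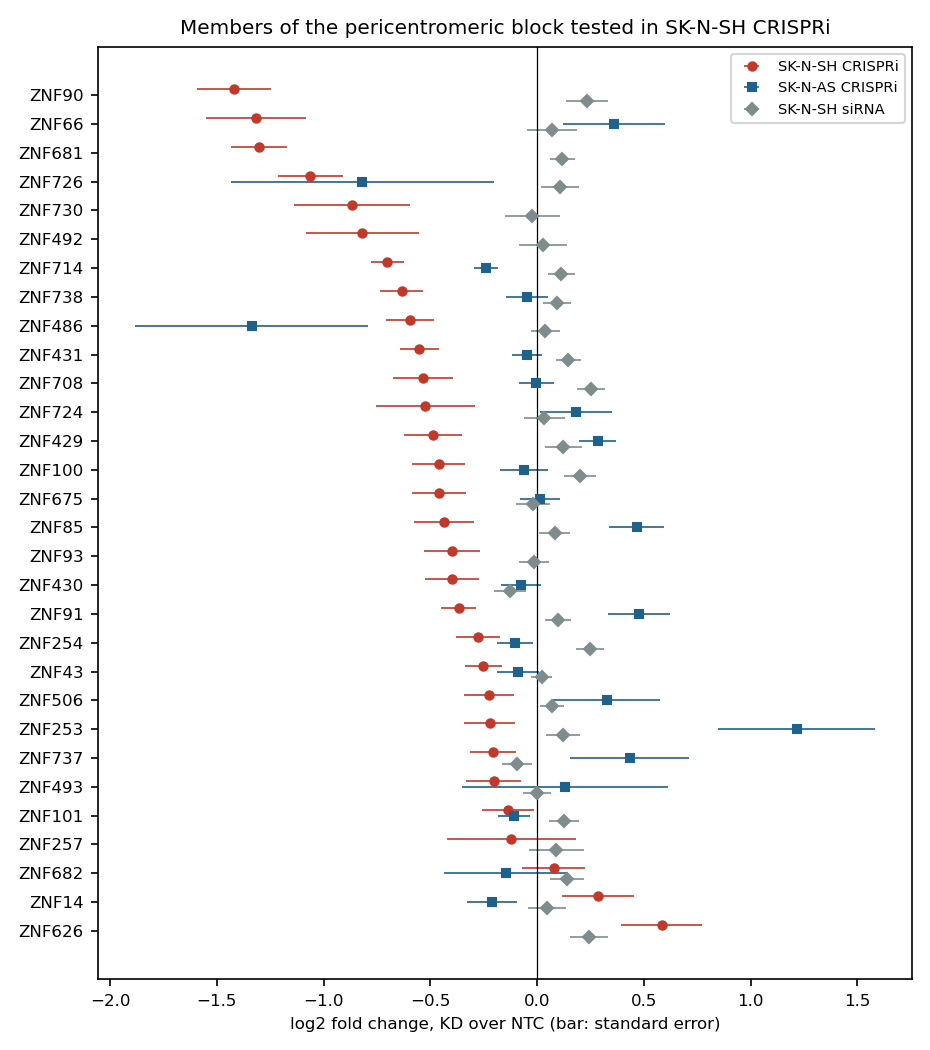
Log2 fold change of knockdown over control (horizontal axis, with SE as bars) for the 30 pericentromeric members tested in SK-N-SH CRISPRi (circles), beside SK-N-AS CRISPRi (squares) and SK-N-SH siRNA (diamonds). The SK-N-SH CRISPRi values are below 0 for 27 of 30 members, and their median is -0.45.

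Outside the block, ZNF536 had the largest fall among the better expressed members. ZNF536 (chr19:30228290-30713538, plus strand) stands alone between blocks, lacks a KRAB box and is a brain-enriched gene whose protein restrains neuronal differentiation in mouse cells. It had 3.86, 5.87 and 3.77 CPM in SK-N-SH CRISPRi knockdown against 13.8, 16.0 and 14.5 CPM in controls. The knockdown libraries were all below the controls, with a log2 fold change of -1.72 (SE 0.13, adjusted p = 8.56e-14). ZNF814 had 2.94, 3.17 and 3.32 CPM in knockdown against 7.44, 8.64 and 8.29 CPM in controls (log2 fold change -1.37, SE 0.15, adjusted p = 2.84e-10). ZNF814 shares 27.4% of its 50-base stretches, mostly with ZNF587B, so its level is uncertain. ZNF792 had 6.08, 6.55 and 5.94 CPM in knockdown against 12.3, 14.4 and 12.9 CPM in controls (log2 fold change -1.10, SE 0.11, adjusted p = 1.53e-10). ZNF556 had 1.37, 1.62 and 2.04 CPM in knockdown against 3.47, 3.89 and 3.22 CPM in controls (log2 fold change -1.05, SE 0.21, adjusted p = 6.71e-05). None of these groups overlapped. ZNF331, an imprinted gene at the end of the distal long-arm block, had 20.01, 21.1 and 21.2 CPM in knockdown against 30.6, 36.4 and 32.4 CPM in controls, and fell (log2 fold change -0.67, SE 0.08, adjusted p = 7.94e-10).

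The largest rise among better expressed members was ZNF404, with 6.998, 8.50 and 9.26 CPM in SK-N-SH CRISPRi knockdown against 4.71, 4.68 and 3.44 CPM in controls. All knockdown libraries were higher, and the log2 fold change was 0.99 (SE 0.15, adjusted p = 4.89e-07). ZNF528 had 33.5, 32.1 and 32.4 CPM in knockdown against 24.2, 22.2 and 22.6 CPM in controls (log2 fold change 0.51, SE 0.07, adjusted p = 8.18e-08). ZNF274, the gene whose protein binds other zinc finger genes, had 16.0, 14.1 and 16.5 CPM in knockdown against 10.2, 10.5 and 11.2 CPM in controls (log2 fold change 0.54, SE 0.10, adjusted p = 1.38e-05). For both, the lowest knockdown library lay above the highest control. ZNF471, whose promoter is known to be methylated in several tumours, had 14.9, 12.2 and 13.9 CPM in knockdown against 8.27, 8.32 and 10.3 CPM in controls, and rose (log2 fold change 0.58, SE 0.11, adjusted p = 2.47e-05). ZNF69, ZNF575, ZNF433 and ZNF223 rose by 0.66 to 0.84 on the log2 scale, from control means of 1.75 to 4.26 CPM. Of these, ZNF433 lost its call without knockdown library 3, and ZNF223 with DESeq2 (adjusted p = 0.0527) and without knockdown library 3 or control library 3. ZNF223 also shares 61.9% of its stretches with other genes, so its level is uncertain. The widest fitted changes were of members near the detection limit. ZNF544 had 11 reads over the 3 knockdown libraries and 47 over the controls (log2 fold change -1.94, SE 0.44, adjusted p = 0.000308). ZNF763 had 42 reads over the knockdown libraries and 19 over the controls (log2 fold change 1.25, SE 0.39, adjusted p = 0.00667) and shares 54.0% of its stretches with other genes.

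In SK-N-AS, CRISPRi knockdown moved fewer members, with 18 rises and 23 falls among 212 tested. Rises were 8.49% of members against 15.2% of all genes, and falls 10.8% against 15.5% of all genes. At least 2-fold, 3 members rose and 1 fell, which is 1.42% and 0.472%, against 1.9% and 1.09% of all genes. The median log2 fold change was -0.0141 for members and -0.0024 for all genes. In the same libraries the mesenchymal marker sum was 2809 to 2887 CPM in knockdown against 2596 to 2641 CPM in controls, DBH averaged 5.72 CPM in knockdown and 12.86 CPM in controls (log2 fold change -1.15, SE 0.07, adjusted p = 7.07e-15), and PTPRC, a marker of blood cells, averaged 451 CPM in knockdown and 541 CPM in controls (log2 fold change -0.27, SE 0.03, adjusted p = 5.9e-10). The part of these genes in the members' changes was not tested. All 18 rises were of genes with the KRAB A box pattern, of which 178 were tested and 15 fell. Of 34 tested members without the pattern, 8 fell, and 10 had an unadjusted p under 0.05 in either direction. The difference between these shares was not tested. Among the 8 falls, ZNF446 matched 8 of the pattern's 14 letters and ZNF473 matched 6, short of the 9 required, so the grouping is approximate. Groups did not overlap for 15 of the 18 rises, against 83.4% of the rises of all genes, and for 19 of the 23 falls, against 81.4%.

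ZNF667 had the largest change of all members in SK-N-AS. ZNF667 (chr19:56439325-56478065, minus strand, overlapping 1 gene on the opposite strand) is on the list of genes known for promoter methylation in tumours. It had 4.19, 4.06, 3.75 and 4.51 CPM in the 4 knockdown libraries against 0.759, 0.600, 0.888 and 0.910 CPM in the 4 controls. The lowest knockdown library was several times the highest control, a 5.07-fold difference in the fit (log2 fold change 2.34, SE 0.14, adjusted p = 1.77e-15). ZNF667 did not pass the test in SK-N-SH, where it had 16.3 to 16.5 CPM in CRISPRi knockdown and 15.03 to 16.1 CPM in controls (adjusted p = 0.368). With siRNA it had 17.2 to 19 CPM in knockdown and 18.4 to 19.6 CPM in controls (adjusted p = 0.47). Both SK-N-SH levels were above all SK-N-AS levels.

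Its neighbour ZNF471 (chr19:56507850-56530221, plus strand) rose as well. It had 4.99, 5.38, 4.41 and 4.75 CPM in SK-N-AS knockdown against 3.05, 3.00, 3.47 and 3.14 CPM in controls, with no overlap (log2 fold change 0.62, SE 0.10, adjusted p = 7.73e-06). ZNF471 and ZNF585A were the 2 members called higher in both CRISPRi experiments. ZNF585A had 6.28, 5.69, 7.27 and 7.98 CPM in SK-N-AS knockdown against 3.61, 3.87, 3.18 and 4.00 CPM in controls (log2 fold change 0.89, SE 0.11, adjusted p = 1.65e-08). Its sister gene ZNF585B had 4.71, 5.21, 5.03 and 5.78 CPM in knockdown against 2.63, 3.46, 3.24 and 2.32 CPM in controls (log2 fold change 0.85, SE 0.11, adjusted p = 2.39e-07). The sisters share sequence, 26.2% of stretches for ZNF585B, so their reads may be mixed. ZNF568, whose mouse relative represses a placental transcript of Igf2, lies in the same block. It had 3.30, 3.08, 2.90 and 3.19 CPM in knockdown against 1.91, 1.13, 2.14 and 2.02 CPM in controls, and rose (log2 fold change 0.74, SE 0.14, adjusted p = 7.56e-05).

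In the distal long-arm block 5 of 31 tested members rose, ZNF613, ZNF615, ZNF610, ZNF701 and ZNF468. ZNF615 had 3.63, 3.29, 4.26 and 4.09 CPM in SK-N-AS knockdown against 2.36, 2.70, 2.12 and 2.13 CPM in controls (log2 fold change 0.73, SE 0.12, adjusted p = 1.25e-05). The 1 fall of that block was ZNF528, with 2.10, 2.02, 1.97 and 1.77 CPM in knockdown against 3.53, 3.00, 3.44 and 3.803 CPM in controls (log2 fold change -0.82, SE 0.12, adjusted p = 2.02e-06). It was the largest fall among the better expressed members in SK-N-AS. The others were small: ZNF77, ZNF221, ZNF772, ZNF551, ZNF420 and ZNF714 fell by 0.24 to 0.36 on the log2 scale, of which ZNF221 lost its call without knockdown library 3 or control library 3. ZNF274 had 22.9, 22.5, 23.0 and 22.7 CPM in knockdown against 27.1, 25.1, 27.2 and 25.8 CPM in controls, and fell (log2 fold change -0.21, SE 0.05, adjusted p = 0.000576). In the pericentromeric block 4 of 23 tested members rose, ZNF253, ZNF85, ZNF429 and ZNF91, and 1 fell, ZNF714.

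**Figure D4:**
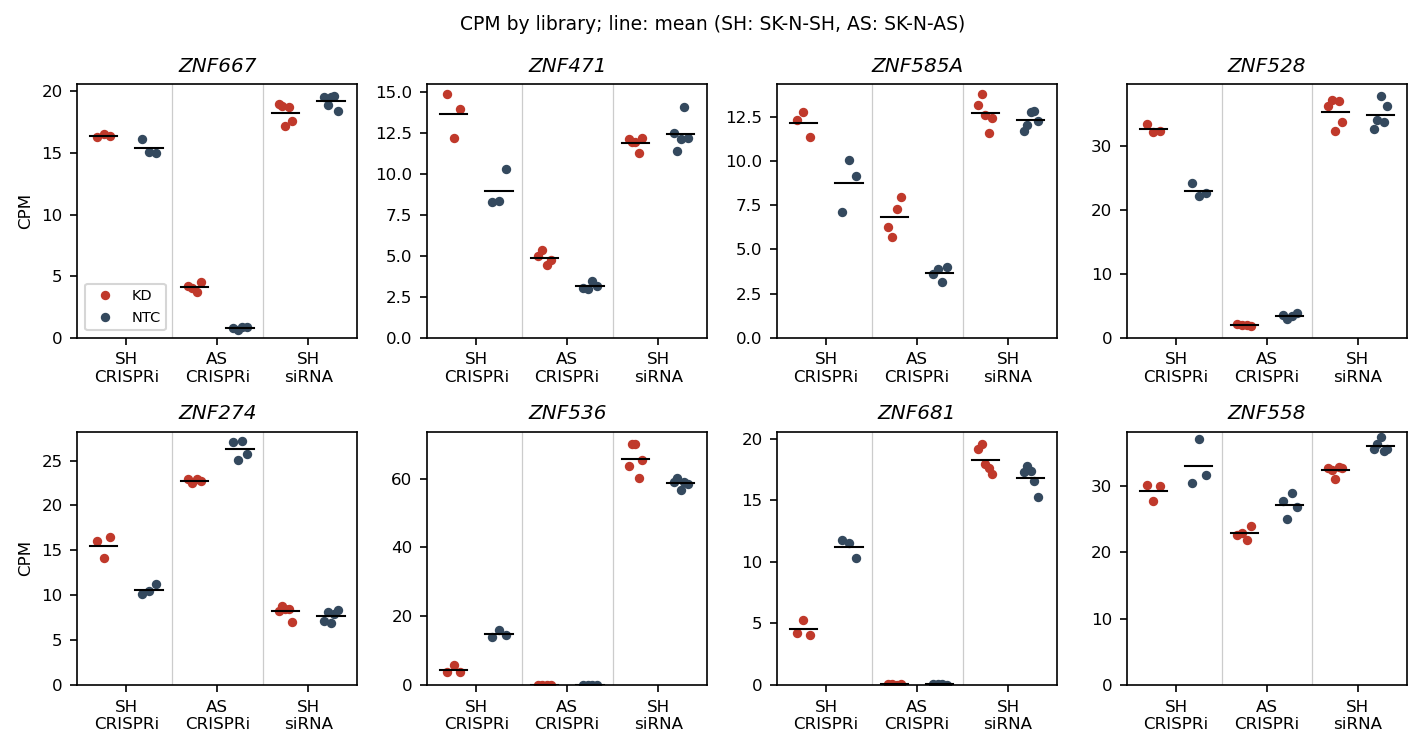
CPM per library (vertical axes, points, with the mean as a line) of ZNF667, ZNF471, ZNF585A, ZNF528, ZNF274, ZNF536, ZNF681 and ZNF558, knockdown left of control in each experiment. ZNF667 sits at 3.75 to 4.51 CPM in SK-N-AS knockdown against 0.600 to 0.910 CPM in controls, while its groups overlap or nearly meet in SK-N-SH.

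With siRNA in SK-N-SH, few members moved. Of 240 tested, 5 rose, 2.08% against 2.55% of all genes, and 2 fell, 0.833% against 6.98% of all genes. The 5 that rose were ZNF708, ZNF254, ZNF224, ZNF780B and ZNF536, by 0.16 to 0.25 on the log2 scale, and the 2 that fell were ZNF468 and ZNF558. ZNF536 had 63.5, 69.9, 70.1, 60.0 and 65.3 CPM in siRNA knockdown against 59.1, 60.2, 56.8, 58.9 and 58.5 CPM in controls. The lowest knockdown library lay just under the highest control, and the log2 fold change was 0.16 (SE 0.05, adjusted p = 0.0205). ZNF468 had 16.1, 15.7, 14.02, 14.3 and 15.7 CPM in knockdown against 18.8, 20.2, 17.5, 18.8 and 16.4 CPM in controls, with no overlap (log2 fold change -0.27, SE 0.06, adjusted p = 0.00593). Most of these calls were lost when single libraries were left out. The number that rose was 1 without control library 2 or 4, 2 without knockdown library 1 or 3 or control library 1 or 3, 3 without knockdown library 4 and 8 without control library 5. The number that fell was 1 without control library 2 or 3. With upper quartile scaling 8 rose and 1 fell, so that rises made up 88.9% of the calls, against 71.4% with TMM scaling. In the pericentromeric block 25 of 31 tested members had a positive log2 fold change, with a median of 0.09, and 2 were called. Over all members 140 of 240 were positive, with a median of 0.0203, and the median of all genes was 0.0085. The block was singled out after its values were seen. Without knockdown library 1, whose block sum of 473 CPM was the highest, the block median was 0.05. No block member was called then, and none was called without control library 2.

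Of the 205 members tested in all 3 experiments, ZNF558 was the 1 member called in the same direction in each. The matching share of all genes was not counted, so this number says nothing about the members as a set. ZNF558 (chr19:8806170-8832314, minus strand) is a KRAB gene known to repress SPATA18, a mitochondrial quality control gene, in human neural progenitors. It had 30.1, 27.7 and 29.9 CPM in SK-N-SH CRISPRi knockdown against 30.5, 37.1 and 31.6 CPM in controls (log2 fold change -0.18, SE 0.07, adjusted p = 0.0382). In SK-N-AS it had 22.6, 22.9, 21.9 and 23.99 CPM in knockdown against 27.7, 24.99, 28.9 and 26.8 CPM in controls (log2 fold change -0.25, SE 0.05, adjusted p = 0.00013). With siRNA it had 32.7, 32.4, 31.0, 32.9 and 32.7 CPM in knockdown against 35.6, 36.4, 37.4, 35.3 and 35.6 CPM in controls (log2 fold change -0.16, SE 0.04, adjusted p = 0.0216). Every knockdown library was below every control in each experiment, though the calls in SK-N-SH were near the threshold. The SK-N-SH CRISPRi call was lost with DESeq2 (adjusted p = 0.11), with a replicate block (0.0562), with no filter on low counts (0.0882), and without knockdown library 1, 2 or 3 or control library 2. The siRNA call was lost with upper quartile scaling (0.062), with a replicate block (0.0703), with no filter (0.0594), and without knockdown library 3 or control library 2 or 3.

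The responses of the experiments were then compared directly, as a difference of log2 fold changes in an edgeR model over both experiments. The SK-N-SH CRISPRi response was lower than the siRNA response for 49 of 241 members and higher for 17. These are 20.3% and 7.05%, against 16.4% and 15.1% of all genes. The median difference was -0.07 for members and -0.06 for all genes. In the pericentromeric block 19 of 31 were lower, with a median of -0.53. The largest single difference among the named members was ZNF536, -1.90 (SE 0.13, adjusted p = 8.92e-14). ZNF90 at -1.67, ZNF814 at -1.44, ZNF681 at -1.44, ZNF792 at -1.21, ZNF726 at -1.18, ZNF331 at -0.83 and ZNF714 at -0.82 followed.

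Against SK-N-AS CRISPRi, the SK-N-SH CRISPRi response was lower for 37 of 236 members and higher for 18, which is 15.7% and 7.63%, against 14.7% and 16.0% of all genes. The count of 18 was 11 without SK-N-SH knockdown library 3 and 10 without SK-N-SH control library 1. In the pericentromeric block 13 of 30 were lower, with a median difference of -0.46. ZNF667 differed by -2.23 (SE 0.16, adjusted p = 9.54e-16). ZNF528 differed by 1.34 (SE 0.13, adjusted p = 4.54e-12) and ZNF274 by 0.76 (SE 0.10, adjusted p = 6.63e-08), each higher in SK-N-SH knockdown and lower in SK-N-AS knockdown than in controls. ZNF91 differed by -0.83 (SE 0.16, adjusted p = 6.05e-05), having risen in SK-N-AS with 2.92, 2.88, 3.43 and 2.71 CPM in knockdown against 2.14, 2.73, 2.34 and 1.495 CPM in controls. The rise in SK-N-AS was lost without control library 4.

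Of 205 members tested in both CRISPRi experiments, 19 were called in both, which is 26.0% of the 73 called in SK-N-SH and 46.3% of the 41 called in SK-N-AS. Over all genes tested in both, 3660 were called in both, which is 46.3% of the SK-N-SH calls and 71.2% of the SK-N-AS calls. Of the 19 members, 12 had the same direction, 2 higher and 10 lower, and 7 had opposite directions, against 809 of the 3660 genes. The 10 lower in both were ZNF227, ZNF428, ZNF787, ZNF473, ZNF714, ZNF558, ZNF792, ZNF551, ZNF550 and ZNF229. The 7 with opposite directions were ZNF85, ZNF91, ZNF429, ZNF114 and ZNF829, higher in SK-N-AS and lower in SK-N-SH, and ZNF528 and ZNF274, the reverse. Several of these calls were fragile. In SK-N-AS, ZNF114 lost its call with no filter on low counts and without knockdown library 1, 3 or 4 or control library 1, 2 or 4, and ZNF829 without knockdown library 1. In SK-N-SH, ZNF114 and ZNF829 lost theirs with DESeq2 and without knockdown library 3 or control library 2, ZNF829 also without knockdown library 1 and with no filter, and ZNF85 without knockdown library 1 or control library 3. Of 7 siRNA calls, 6 were also called in SK-N-SH CRISPRi, ZNF224 and ZNF558 in the same direction and ZNF536, ZNF708, ZNF254 and ZNF780B in the opposite one. Over all genes tested in both, 1403 of 1885 siRNA calls (74.4%) were also called in SK-N-SH CRISPRi, 1098 of them in the opposite direction.

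Between the lines, the control levels of these genes differed more widely than with any knockdown. SK-N-AS controls were lower than both SK-N-SH control groups for 105 of 241 members, 43.6% against 28.6% of all genes, and higher for 53, 22.0% against 24.1%. At least 2-fold, 73 were lower, 30.3% against 18.0% of all genes, and 6 were higher, 2.49% against 8.66%. Against the SK-N-SH CRISPRi controls, 44.8% of members were lower and 31.5% higher in SK-N-AS, beside 36.4% and 31.0% of all genes. Against the SK-N-SH siRNA controls 59.3% were lower and 28.2% higher, beside 46.8% and 37.5% of all genes. ZNF genes of other chromosomes were lower at least 2-fold in 14.9% of 249 and higher in 5.22%. Members with the KRAB A box pattern were lower at least 2-fold in 33.0% of 203, and members without it in 15.8% of 38. The pattern was not separated from position. The pericentromeric and distal long-arm blocks hold few members without it. They supplied 21 and 22 of the 73 members lower at least 2-fold, out of 31 and 39 tested. Whether the shares differ outside these blocks was not tested.

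Line and experiment cannot be fully told apart. The SK-N-SH siRNA controls were higher than the SK-N-SH CRISPRi controls for 49.4% of members and lower for 10.8%, beside 34.9% and 30.7% of all genes. The median log2 difference within the line was 0.25 for members and 0.07 for all genes. The all-gene median between SK-N-AS and SK-N-SH siRNA controls was -0.16, to be set beside the members' median of -0.50.

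Levels per kilobase of gene model differed by block. In the pericentromeric block the median level was 0.0756 CPM per kilobase in SK-N-AS controls, against 1.29 in SK-N-SH CRISPRi controls and 1.41 in SK-N-SH siRNA controls. Of its 31 tested members, 27 were lower in SK-N-AS than in both SK-N-SH groups, 21 of them at least 2-fold. Its summed level was 99.03 to 106 CPM in the 4 SK-N-AS controls, against 279 to 301 CPM in the SK-N-SH CRISPRi controls and 371 to 407 CPM in the SK-N-SH siRNA controls. In the distal long-arm block the median level was 0.441 CPM per kilobase in SK-N-AS, against 1.502 in SK-N-SH CRISPRi controls and 2.10 in siRNA controls, and 27 of 39 members were lower, 22 at least 2-fold. The telomeric block had more members higher than lower in SK-N-AS. Its median was 3.07 CPM per kilobase in SK-N-AS, against 1.89 in SK-N-SH CRISPRi controls and 2.52 in siRNA controls, with 26 of 59 members higher and 11 lower. At least 2-fold, 4 were higher and 6 lower. Other genes in the pericentromeric span were lower in SK-N-AS than in SK-N-SH CRISPRi controls for 17 of 34 tested, with a median log2 difference of -1.45. Over all members the sums overlapped between SK-N-AS, 3031 to 3188 CPM, and the SK-N-SH CRISPRi controls, 2899 to 3173 CPM.

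**Figure D5:**
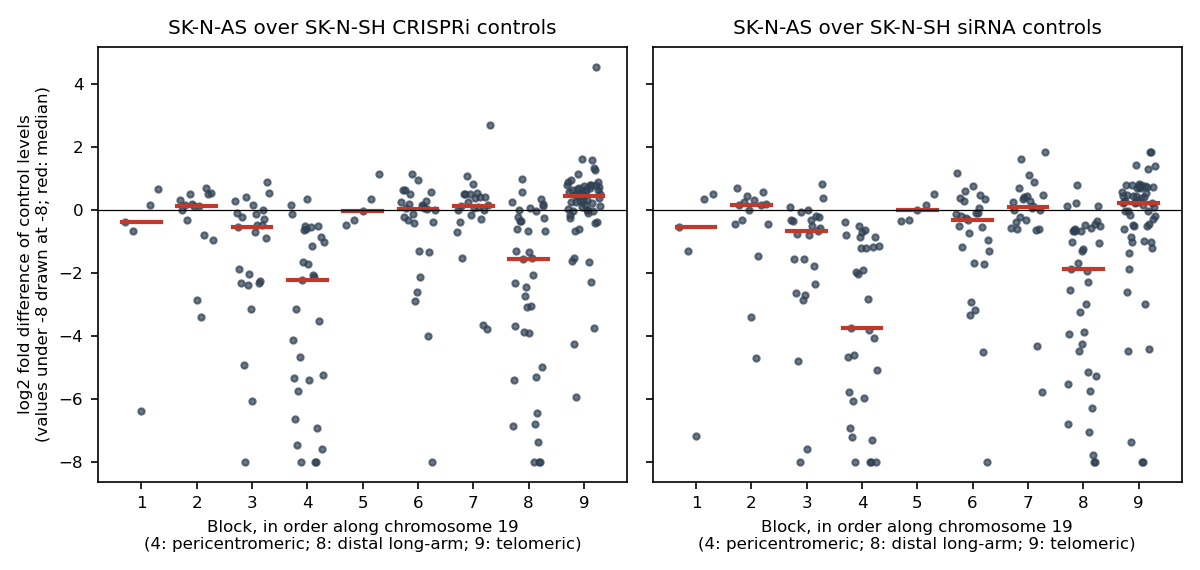
Log2 difference of control levels, SK-N-AS over each SK-N-SH control group (vertical axis, values under -8 drawn at -8), for the members of the 9 blocks with at least 5 members in order along the chromosome (horizontal axis), with the median of each block in red. The pericentromeric and distal long-arm blocks lie mostly below 0, and the telomeric block is centred above 0 against the SK-N-SH CRISPRi controls.

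Some members were close to undetected in SK-N-AS alone. Under 0.1 CPM per kilobase in all 4 SK-N-AS controls and at or above it in all SK-N-SH controls were 32 of 250 members (12.8%), of which 11 lay in the distal long-arm block and 10 in the pericentromeric block. The share was 3.38% of ZNF genes of other chromosomes and 3.01% of all protein-coding genes. No member showed the reverse, which was rare elsewhere too, at 0.752% of ZNF genes of other chromosomes and 1.35% of all protein-coding genes. ZNF677 (chr19:53235381-53254898, minus strand), known to be methylated in tumours, had 0 reads in the SK-N-AS controls. It had 0.884 ± 0.046 CPM per kilobase in SK-N-SH CRISPRi controls (SD, n = 3) and 2.28 ± 0.15 in SK-N-SH siRNA controls (SD, n = 5). Set against a floor of 3 counts over the SK-N-AS group, this was at least 660-fold higher in SK-N-SH CRISPRi controls and at least 1701-fold higher in siRNA controls. ZNF781, ZNF492 and ZNF257 also had 0 reads in SK-N-AS and were at least 200-fold, 165-fold and 100-fold higher in SK-N-SH CRISPRi controls on the same floor. ZNF492 shares 33.3% of its stretches, mostly with ZNF98, so its reads are uncertain. ZNF536 was near 0 as well, with 2 reads over the SK-N-AS controls, against 1.79 ± 0.14 CPM per kilobase in SK-N-SH CRISPRi controls (SD, n = 3) and 6.59 ± 0.13 in siRNA controls (SD, n = 5). ZNF681 had 0.00893 ± 0.0028 CPM per kilobase in SK-N-AS controls (SD, n = 4), against 1.80 ± 0.11 in SK-N-SH CRISPRi controls and 2.51 ± 0.14 in siRNA controls. ZNF347, ZNF69, ZNF626 and ZNF665 were low in SK-N-AS in the same way.

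Members higher in SK-N-AS were fewer and differed less. ZNF544 had 3.26 ± 0.14 CPM per kilobase in SK-N-AS controls (SD, n = 4), against 0.142 ± 0.023 in SK-N-SH CRISPRi controls and 0.908 ± 0.094 in siRNA controls. The log2 difference was 4.55 against the CRISPRi controls (SE 0.16, adjusted p = 3.63e-24) and 1.84 against the siRNA controls (SE 0.07), so the SK-N-SH groups themselves differed widely. ZNF274 had 3.24 ± 0.20 CPM per kilobase in SK-N-AS controls, against 1.33 ± 0.081 in SK-N-SH CRISPRi controls (log2 difference 1.28) and 0.895 ± 0.074 in siRNA controls (1.86). ZNF606, ZNF772, ZNF155 and ZNF296 were also at least 2-fold higher than both. ZNF420, ZNF480 and ZNF787 were higher by less, and so was ZNF490, which shares 70.9% of its stretches with other genes. ZNF146, a gene of zinc fingers without a KRAB box, had the highest level of any member in all 3 control groups. It had 55.4 ± 2.5 CPM per kilobase in SK-N-AS (SD, n = 4), against 35.6 ± 4.4 in SK-N-SH CRISPRi controls and 24.6 ± 1.1 in siRNA controls. ZNF358, ZNF428, ZNF787 and ZNF581, which also lack the pattern of a KRAB box, were among the next.

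Transcripts of the genes that KRAB zinc finger proteins work through shifted modestly. Of 24 genes of the KRAB corepressor and heterochromatin machinery, 11 fell and 6 rose in SK-N-SH CRISPRi knockdown, beside 28.0% and 27.7% of all genes, with a median log2 fold change of -0.09, against -0.01 for all genes. TRIM28 averaged 419 CPM in SK-N-SH CRISPRi knockdown and 487 CPM in controls (log2 fold change -0.22, SE 0.04, adjusted p = 1.95e-05). The others that fell were SUV39H1, SUV39H2 and EHMT2 (histone methyltransferases), DNMT1 and UHRF1 (DNA methylation maintenance), CBX3 and CBX5 (HP1 proteins), DAXX, HDAC2 and SMARCAD1. SETDB1, HDAC1, CHD3, MORC2, TASOR and RESF1 rose. In SK-N-AS 9 fell and 1 rose, beside 15.5% and 15.2% of all genes, with a median of -0.06. TRIM28 averaged 498 CPM in SK-N-AS knockdown and 538 CPM in controls (log2 fold change -0.11, SE 0.03, adjusted p = 0.00213). TRIM28, DNMT1, UHRF1, EHMT2, CBX5, DAXX and HDAC2 fell in both CRISPRi experiments. With siRNA 2 of the 24 rose, beside 2.55% of all genes, CBX5 and MPHOSPH8, with a median of 0.05.

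Of 9 members known for promoter methylation in tumours, ZNF471 rose among 6 tested in SK-N-SH CRISPRi, beside 27.7% of all genes. In SK-N-AS, ZNF471 and ZNF667 rose among 5 tested, beside 15.2% of all genes. The median log2 fold change was 0.10 in SK-N-SH CRISPRi, 0.42 in SK-N-AS and -0.05 over 8 tested with siRNA. The SK-N-AS median was the value of ZNF582, which averaged 1.10 CPM in knockdown and 0.819 CPM in controls. ZNF582 did not pass the test there (edgeR adjusted p = 0.135). Of 5 members known to bind retroelements, ZNF91, ZNF93 and ZNF649 fell and ZNF611 rose in SK-N-SH CRISPRi, with a median of -0.36. Of all genes, 28.0% fell and 27.7% rose there. The call of ZNF649 was lost with DESeq2 (adjusted p = 0.0614) and without knockdown library 1 or 3 or control library 3. That of ZNF611 was lost with DESeq2 (adjusted p = 0.115), with no filter on low counts (0.0556) and with upper quartile scaling (0.0553). The ZNF611 call was also lost without any 1 library other than knockdown library 2. In SK-N-AS, ZNF91 rose among 4 tested, beside 15.2% of all genes. ZNF331 did not pass the test in SK-N-AS, with 19.8 to 23.2 CPM in knockdown and 19.6 to 22.4 CPM in controls (adjusted p = 0.999). ZNF808, needed for human pancreas development, did not pass there either, with 4.39 to 5.83 CPM in knockdown and 3.82 to 5.30 CPM in controls (adjusted p = 0.0799). ZNF808 shares 28.6% of its stretches with other genes, so its level is uncertain.

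Across all 3 experiments, 108 of the 240 members tested in any were called in at least 1, which is 45.0%, against 46.2% of all genes tested in any. All 3 tested 205 members. The 10 members tested in none, for low counts, were ZNF177, ZNF625-ZNF20, ZNF676, ZNF729, ZNF98, ZNF99, ZNF723, ZNF728, ZNF534 and ZNF816-ZNF321P.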

How the data were processed

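RNA was sequenced from poly-A libraries of 24 samples in 6 groups and 3 experiments. CRISPRi libraries were made with a stranded kit, and for siRNA libraries the protocol allows either kind, per the labels. The authors deposited raw counts of reads per gene on GRCh38, 1 table per experiment. The submitters' processing notes name bcl2fastq (2.20 and 2.20.0.422), CASAVA, FastQC 0.11.8, STAR 2.6.1d and featureCounts 1.5.1, with no role for each. No source used here gives the annotation release or the strand setting. Total counts per library are given above, and they set the precision of each value.

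From these counts, each experiment was fitted alone in R 4.3.3 with edgeR 4.0.16 (filterByExpr with a minimum count of 10 and a minimum total of 15, TMM scaling, robust glmQLFit, glmQLFTest, two-sided, Benjamini-Hochberg adjustment over all genes tested, called at an adjusted p under 0.05). Standard errors come from the estimate and the F statistic. Differences of responses were contrasts in a model of 2 experiments, each against its own controls. Control levels came from 1 model and 1 TMM scaling of all 12 control libraries, as CPM per kilobase of the gene length in the siRNA table. KRAB boxes, fingers and shared 50-base stretches were read from GENCODE 29 transcripts by pattern, and promoters from RefSeq.

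Alternatives were DESeq2 1.42.0, other scalings and filters, a replicate block and each library left out. Named were, per experiment, up to 8 largest rises and falls among called members averaging 0 log2 CPM or more; members called alike in all 3 experiments or opposite in the CRISPRi experiments; up to 8 per difference of responses; up to 10 higher and 10 lower in SK-N-AS; the 8 highest levels per control group; and fixed lists. Others were named after their values were seen. Some marker lists are not reported here. Members and lists were chosen with earlier results of these data known. Tested on simulated data with changed genes, the SK-N-SH CRISPRi fit on 15391 genes recovered 88.0% of 50 genes made 2-fold lower, and the siRNA fit on 21018 genes 68.0%.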

Additional observations from a re-analysis of the deposited data

Results flagged for a closer look

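Among 188 groups of 4 or 5 libraries checked for a library far from the rest of its group, 7 values stood out. Chance gives about 1 in 20. ZNF154 had 2.64 CPM in siRNA knockdown library 4, against 1.13 to 1.48 CPM in the other knockdown libraries, and 2.28 CPM in siRNA control library 5, against 0.427 to 0.960 CPM in the other controls. These 2 libraries were also low in ribosomal protein genes, and ZNF154, not called in the full set (adjusted p = 0.413), was called higher in siRNA knockdown without control library 5 alone (log2 fold change 1.27, edgeR adjusted p = 0.00445) and without both libraries. ZNF471 had 11.3 CPM in siRNA knockdown library 4, below 11.9 to 12.2 CPM in the others. ZNF558 had 31.0 CPM in siRNA knockdown library 3, below 32.4 to 32.9 CPM in the others. ZNF274 had 7.05 CPM in siRNA knockdown library 5, below 8.28 to 8.77 CPM in the others. ZNF404 had 2.31 CPM in siRNA knockdown library 2, below 2.62 to 2.73 CPM in the others. ZNF66 had 0.583 CPM in SK-N-AS control library 1, below 0.666 to 0.683 CPM in the others.

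The response differed from siRNA in SK-N-SH CRISPRi for 49 members lower and 17 higher, and from SK-N-AS CRISPRi for 37 lower and 18 higher. The 8 members named for each difference are given here as log2 differences. The SK-N-SH CRISPRi response minus the siRNA response was -1.90 for ZNF536 (edgeR adjusted p = 8.92e-14), -1.21 for ZNF792 (9.58e-11), -1.44 for ZNF681 (1.81e-10), -0.83 for ZNF331 (1.12e-08), -1.44 for ZNF814 (2.69e-08), -1.67 for ZNF90 (3.63e-08), -0.82 for ZNF714 (1.06e-06) and -1.18 for ZNF726 (2.43e-06). The SK-N-SH CRISPRi response minus the SK-N-AS CRISPRi response was -2.23 for ZNF667 (adjusted p = 9.54e-16), 1.34 for ZNF528 (4.54e-12), -0.86 for ZNF792 (5.19e-08), 0.76 for ZNF274 (6.63e-08), -0.66 for ZNF331 (4.75e-07), -1.23 for ZNF814 (3.38e-05), -0.83 for ZNF91 (6.05e-05) and -2.06 for ZNF544 (0.000107). ZNF544 rests on few reads in SK-N-SH.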

How the results depend on the processing

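Counts of calls over all members stayed within 1.5 times of their main value under every alternative run, apart from the siRNA counts and the members with a higher response in SK-N-SH than in SK-N-AS CRISPRi. The 5 siRNA rises became 9 with DESeq2, 8 with upper quartile scaling and 1 with a replicate block, and ran from 1 to 8 with a library left out. The 2 siRNA falls became 4 with DESeq2, 1 without the filter on low counts, 1 with upper quartile scaling and 1 with the replicate block, and ran from 1 to 3 with a library left out. The 18 higher responses ran from 10 to 20 with a library left out. For these the cause was not tested. Replicate numbers did not pair the samples: the correlation of same-numbered deviations ran from -0.14 to 0.05, so the block result rests on shared numbers alone. Falls in the pericentromeric block numbered 15 to 21 with a library left out, and 18 with DESeq2. In the distal long-arm block the 4 falls of SK-N-SH CRISPRi became 2 with DESeq2 and ran from 1 to 4 with a library left out, and the 8 of the telomeric block became 5 with DESeq2. Of 2374 alternative values for 144 values of named genes, 87 lost their call, 16 gained one and none turned direction. RLE scaling moved the all-gene median between SK-N-AS and SK-N-SH siRNA controls from -0.16 to -0.19. The filter on low counts left 226 of 250 members in SK-N-SH CRISPRi and 212 in SK-N-AS, whose libraries are deeper.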
